A study of Mus musculus with 12 samples.

Results

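Transcripts of 9 growth factor and receptor genes were followed in mouse bone marrow-derived macrophages (BMDMs): the platelet-derived growth factor ligands Pdgfa, Pdgfb and Pdgfc, the receptor Pdgfrb, the vascular endothelial growth factors Vegfa and Vegfb, the receptor Flt1, and the single ligands Igf1 and Hbegf. They were chosen by gene symbol, with earlier results of these data known, and all 9 were found among the 18376 genes measured by RNA sequencing. The macrophages came from bone marrow progenitor cells of adult wild-type C57BL/6J mice and were grown with 50 ng/ml recombinant mouse M-CSF in every group. CTRL cells received nothing more, Act cells received 50 ng/ml recombinant activin A, FST cells received 250 ng/ml FST288, and Act + FST cells received both, each for 6 days, with 3 libraries per group and 12 in all. FST288 is an isoform of follistatin, which captures activin A outside the cell and so blocks its access to receptors. The study asked how activin A alters the transcriptome of macrophages, and the groups with FST288 address whether an effect needs free activin A. The labels do not say whether the 3 libraries of a group came from separate mice or cultures, so the p-values measure the spread between these libraries, which may be technical.

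Platelet-derived growth factors are secreted dimers that drive migration and division of fibroblasts, smooth muscle cells and pericytes. PDGF-A acts through the receptor alpha chain, PDGF-B through both receptor chains, and PDGF-C is secreted in a latent form that extracellular proteases activate. VEGF-A drives growth of blood vessels through the receptor KDR, whereas FLT1 binds VEGF-A and VEGF-B tightly and in monocytes and macrophages takes part in migration. IGF1 is a growth and survival factor that macrophages release during tissue repair, and HB-EGF is a membrane-anchored ligand of the EGF receptor family that proteases such as ADAM17 set free.

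Of the members whose transcript levels changed with activin A, Pdgfb and Hbegf have no promoter reported here. The promoters of the other 5 are printed. They show which of these genes share short regulatory letters and, for Pdgfa, how close a gene on the opposite strand begins. Each is the 250 bases before a RefSeq transcription start (GRCm38.p6), written 5′ to 3′ on the strand of the gene. RefSeq gives 2 starts each for Pdgfa and Vegfa, and the window of the more upstream start is printed. Capitals mark matches on either strand to any of 5 motifs, namely the SMAD box CAGAC, the AP-1 site TGANTCA, the Sp1 box GGGCGG, the cAMP response element TGACGTCA and the hypoxia response core ACGTG.
Pdgfa, chr5:138994945-138995194, minus strand: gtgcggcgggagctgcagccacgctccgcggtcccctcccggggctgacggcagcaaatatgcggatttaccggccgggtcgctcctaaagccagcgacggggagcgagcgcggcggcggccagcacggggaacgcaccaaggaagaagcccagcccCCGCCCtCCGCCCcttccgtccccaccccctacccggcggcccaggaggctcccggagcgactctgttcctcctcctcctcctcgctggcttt
Vegfa, chr17:46032378-46032627, minus strand: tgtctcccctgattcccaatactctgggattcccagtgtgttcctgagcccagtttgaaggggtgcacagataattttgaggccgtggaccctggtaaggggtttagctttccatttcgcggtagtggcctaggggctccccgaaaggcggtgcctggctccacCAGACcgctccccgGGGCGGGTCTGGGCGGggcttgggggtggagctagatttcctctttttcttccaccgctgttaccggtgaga
Flt1, chr5:147726012-147726261, minus strand: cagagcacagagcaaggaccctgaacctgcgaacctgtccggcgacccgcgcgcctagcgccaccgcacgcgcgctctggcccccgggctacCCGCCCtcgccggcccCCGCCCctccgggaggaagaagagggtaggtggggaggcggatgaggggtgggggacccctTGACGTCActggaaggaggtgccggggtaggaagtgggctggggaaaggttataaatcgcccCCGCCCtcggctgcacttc
Pdgfc, chr3:81036166-81036415, plus strand: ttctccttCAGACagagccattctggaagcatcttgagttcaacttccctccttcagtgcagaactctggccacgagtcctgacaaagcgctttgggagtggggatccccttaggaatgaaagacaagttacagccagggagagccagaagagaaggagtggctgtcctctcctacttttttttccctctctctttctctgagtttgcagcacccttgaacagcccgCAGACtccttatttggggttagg
Vegfb, chr19:6987652-6987901, minus strand: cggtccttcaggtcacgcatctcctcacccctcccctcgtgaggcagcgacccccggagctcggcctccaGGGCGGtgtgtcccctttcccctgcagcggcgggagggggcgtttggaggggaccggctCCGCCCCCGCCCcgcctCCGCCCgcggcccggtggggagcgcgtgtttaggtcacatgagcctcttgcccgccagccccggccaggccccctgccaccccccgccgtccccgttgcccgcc

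The SMAD box, the short sequence that SMAD proteins downstream of activin receptors bind, was found 2 times in the printed Vegfa window, with matches beginning 86 and 66 bases before the start. It was also found 2 times in the Pdgfc window, 242 and 23 bases before the start, and it was not found in the Pdgfa, Flt1 and Vegfb windows. These 5 letters are common, and 42.2% of all 32851 promoter windows of this length held them. The Sp1 box was found in the windows of Pdgfa (2 matches), Vegfa (2), Flt1 (3) and Vegfb (4) but not in that of Pdgfc, and 32.7% of all windows held it. The second SMAD match of Vegfa shares a base with the Sp1 match that follows it. Among these 5 windows the cAMP response element was found only in that of Flt1, 81 bases before the start, and 1.55% of all windows held it. None of the 5 printed windows held the AP-1 site, which 6.75% of all windows held, or the hypoxia core, which 16.6% held. The window of the second Vegfa start (chr17:46025164-46025413) lies inside the annotated span of the gene (chr17:46016993-46032369), downstream of the first start. This window, however, held the hypoxia core 211 bases before the second start, with 1 SMAD box 102 bases and 1 Sp1 box 158 bases before it. The window of the second Pdgfa start (chr5:138994282-138994531) held 1 Sp1 box and no other of these motifs. A match is a description of the sequence and not of binding.

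The values are normalized counts, that is, read counts per gene after the authors' scaling of each library and rounding. Totals per library were between 5643708 and 5955400, and 1 read was worth between 0.909 and 1.09 normalized counts. The 8 macrophage markers summed to between 13065 and 14475 in every library, with Adgre1, Cd68 and Csf1r all high. Sums of platelet markers (408 to 585), neutrophil markers (1002 to 1734) and mast cell and basophil markers (0 to 20) overlapped between CTRL and Act, as did those of dendritic markers (81 to 222). Within the neutrophil list, however, the granule genes of early myeloid cells Mpo (80, 162 and 54 in CTRL against 15, 42 and 15 in Act; log2 difference -2.01, adjusted p = 0.0092 in limma) and Elane (29, 66 and 16 against 7, 13 and 9; -1.64, adjusted p = 0.025) were lower in Act, without overlap of the groups. Their part in the results of the 9 genes was not tested. Sums of endothelial markers were lower in Act (1837 to 2090) than in CTRL (2570 to 2901), and its largest part was Vwf. Fibroblast collagens marked replicate 1 of each group. Col1a1 and Col1a2 were at 22 and 24 in CTRL replicate 1, 83 and 109 in Act replicate 1, 28 and 58 in Act + FST replicate 1, and 35 and 58 in FST replicate 1, whereas neither exceeded 9 in any other library.

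Per kilobase of exon, the 9 genes spanned a wide range in CTRL. Igf1 stood at 266 ± 24.6 normalized counts per kilobase (SD, n = 3) and Vegfa at 250.2 ± 11.3, and their ranges overlapped. Vegfb followed at 220 ± 14.5, Pdgfb at 125 ± 14.2, Pdgfc at 76.6 ± 6.88 and Pdgfa at 48.7 ± 4.98, each apart from its neighbours in all CTRL libraries. Hbegf (9.17 ± 6.48) and Pdgfrb (4.56 ± 0.949) overlapped, and Flt1 (1.63 ± 0.854) was the lowest. Hbegf and both receptors were thus scarce beside the other 6 genes.

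**Figure D1:**
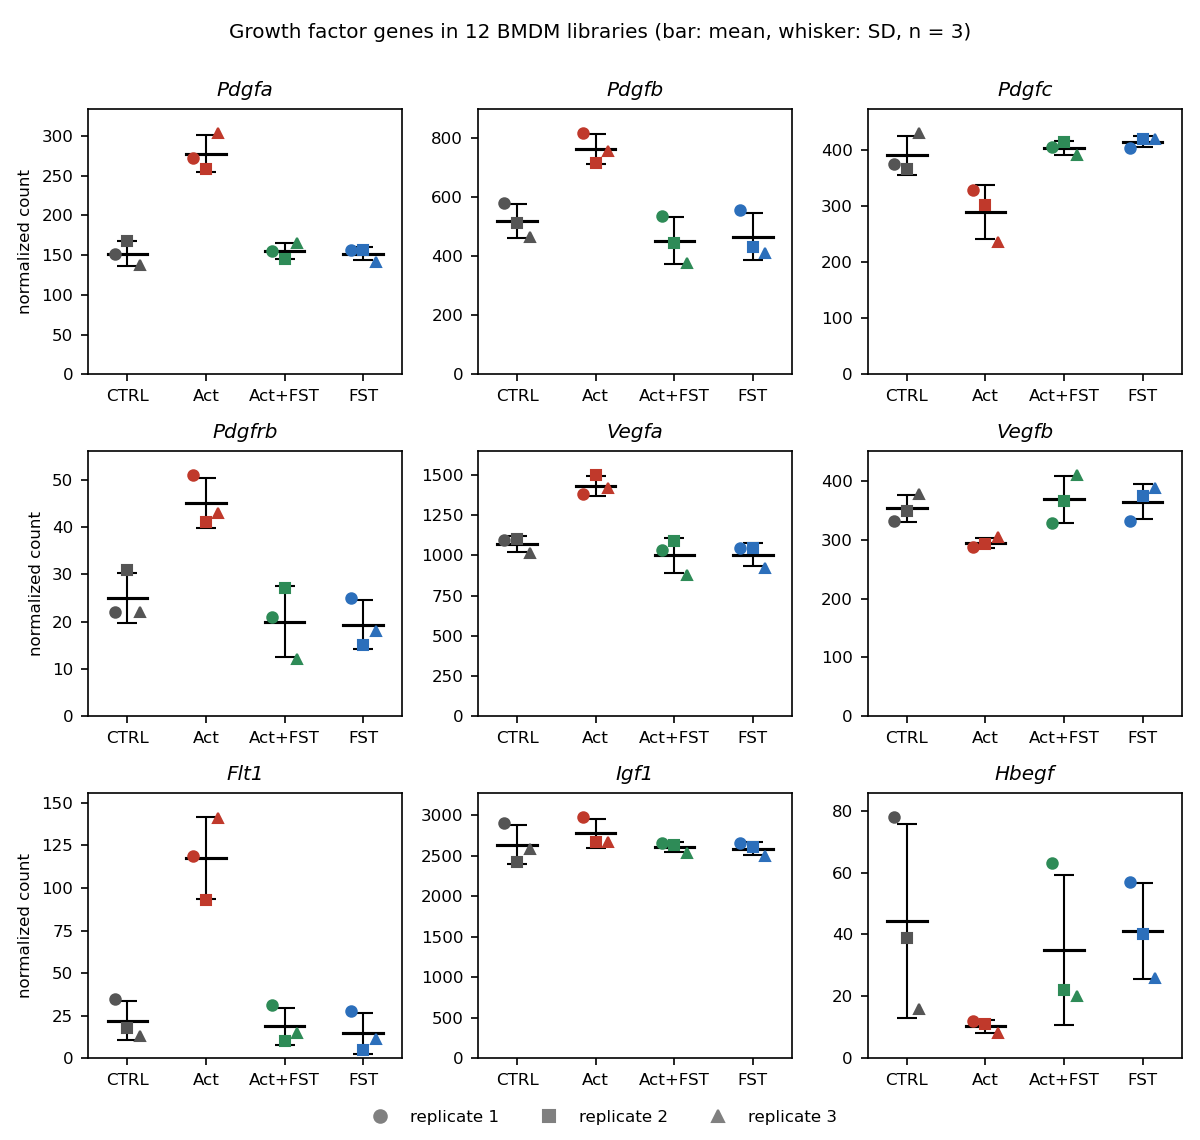
Normalized counts of the 9 genes (vertical axis of each panel, starting at 0) in the 4 groups, with 1 symbol per library, its shape giving the replicate number, the bar the mean and the whisker the SD (n = 3). The Act libraries lie above all others for Pdgfa, Pdgfb, Pdgfrb, Vegfa and Flt1 and below all others for Pdgfc, Vegfb and Hbegf, while those of Igf1 overlap CTRL.

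Activin A shifted the 3 PDGF ligands in opposite directions: Pdgfa and Pdgfb rose and Pdgfc fell. Pdgfa (ENSMUSG00000025856, chr5:138976014-138997370, minus strand) was at 151, 168 and 137 normalized counts in CTRL and at 272, 258 and 304 in Act. It was at 155, 145 and 165 in Act + FST and at 157, 157 and 142 in FST. All 3 Act libraries were above the other 9, which lay together. Pdgfa was 1.83-fold higher in Act than in CTRL (95% interval 1.59 to 2.10; log2 difference 0.87, SE 0.09, adjusted p = 3.9e-05), higher in 3 of 3 replicate pairs. Adjusted p-values are from limma, with Benjamini-Hochberg adjustment over the 14318 genes tested. Against Act + FST, the log2 difference was 0.84 (SE 0.09, adjusted p = 5.1e-05).

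Pdgfb (ENSMUSG00000000489, chr15:79995874-80014977, minus strand), the most abundant PDGF ligand per kilobase in these cells, was at 582, 511 and 465 in CTRL and at 818, 716 and 756 in Act. The values were 535, 445 and 377 in Act + FST and 557, 431 and 411 in FST. The Act libraries stood above all others, and replicate 1 was the highest of each group. The log2 difference was 0.56 (SE 0.13, adjusted p = 0.010) between Act and CTRL, a 1.47-fold rise, and 0.77 (SE 0.13, adjusted p = 0.0014) between Act and Act + FST.

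Pdgfc (ENSMUSG00000028019, chr3:81036416-81214040, plus strand) moved the other way, from 375, 365 and 430 in CTRL to 329, 301 and 236 in Act. It was at 405, 414 and 390 in Act + FST and at 403, 420 and 420 in FST. The highest Act library was thus below the lowest of the other groups. Pdgfc fell by 0.44 on the log2 scale in Act against CTRL (SE 0.10, adjusted p = 0.0075) and by 0.49 against Act + FST (SE 0.10, adjusted p = 0.0037).

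These opposite shifts changed the composition of the PDGF ligand transcripts. Per exonic kilobase, Pdgfc made up between 28.1% and 35.2% of the summed Pdgfa, Pdgfb and Pdgfc in CTRL and between 14.2% and 18.8% in Act. The share of Pdgfa was between 18.3% and 21.7% in CTRL and between 25.03% and 29.9% in Act, and that of Pdgfb between 46.5% and 53.4% in CTRL and between 54.8% and 56.4% in Act. The sum itself went from between 240.2 and 262 to between 314 and 348 normalized counts per kilobase. In the groups with FST288, the share of Pdgfc was between 30.9% and 34.8% (Act + FST) and between 30.1% and 36.4% (FST). None of these 4 ranges of Act overlapped CTRL, and an exact two-sided permutation test gave p = 0.1 for each, the smallest p that 3 against 3 libraries allow.

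**Figure D2:**
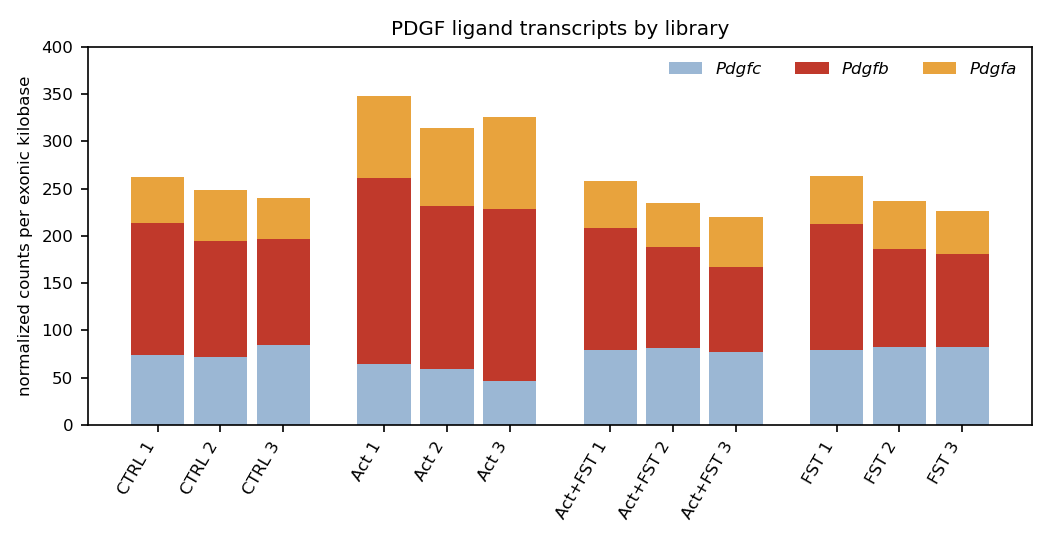
Stacked bars of Pdgfc, Pdgfb and Pdgfa in normalized counts per exonic kilobase (vertical axis, from 0) for each of the 12 libraries, by group and replicate number. The Act bars are the tallest, at 314 to 348, and hold the smallest Pdgfc segments.

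The Pdgfa locus holds a second transcribed gene. 6330403L08Rik (chr5:138995056-139000577, plus strand) was named here after its values were seen. It overlaps 813 of the 3119 exonic bases that GENCODE gives Pdgfa (26.1%) on the opposite strand. It begins 112 bases upstream of the more upstream RefSeq start of Pdgfa, inside the window printed above, and 775 bases upstream of the other. The GENCODE exons of Pdgfa thus extend upstream of both RefSeq starts. The library kit keeps strand, but the strand setting of the counting was not given in the sources used here. Reads that overlapped more than 1 gene were left out of the counts. Whether reads of the shared bases were counted thus depends on that setting. 6330403L08Rik was at 121, 106 and 127 in CTRL, at 226, 240 and 269 in Act, at 115, 124 and 122 in Act + FST and at 94, 115 and 112 in FST. It was also higher in all 3 Act libraries than in the other 9, with a log2 difference of 1.05 between Act and CTRL (SE 0.10, adjusted p = 2.1e-05). Its part in the Pdgfa values was not tested. Of Pdgfc, 147 exonic bases (2.89%) overlap Gm16000 on the opposite strand, for which the table gives no value.

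**Figure D3:**
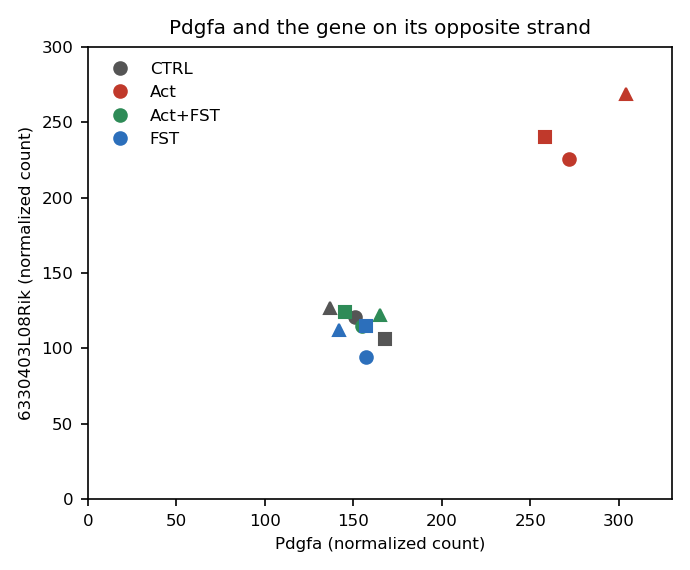
Normalized counts of 6330403L08Rik (vertical axis) against those of Pdgfa (horizontal axis) in the 12 libraries, with color giving the group and the shape of the symbol the replicate number. The 3 Act libraries lie apart at 258 to 304 for Pdgfa and 226 to 269 for 6330403L08Rik, and the other 9 form a single cloud.

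Pdgfrb (ENSMUSG00000024620), the receptor chain for PDGF-B, was low in all groups, at 22, 31 and 22 in CTRL, 51, 41 and 43 in Act, 21, 27 and 12 in Act + FST and 25, 15 and 18 in FST. The Act libraries were again the 3 highest. The log2 difference between Act and CTRL was 0.84 (SE 0.29) and missed the threshold (adjusted p = 0.060), and with the replicate number as a block the adjusted p was 0.026. Against Act + FST, Pdgfrb was 2.29-fold higher (log2 difference 1.20, SE 0.29, adjusted p = 0.0099). Pdgfrb is a marker of pericytes and fibroblasts. The sums of pericyte and smooth muscle markers were also higher in Act, while those of fibroblast markers overlapped. The 4 listed of 8 pericyte and smooth muscle markers summed to between 32 and 39 in CTRL and between 109 and 199 in Act, mainly through Cspg4 (4, 2 and 2 against 151, 75 and 112), while Rgs5, Des, Notch3 and Abcc9 were not in the table. Acta2 (log2 difference 0.40, adjusted p = 0.25 in limma) and Tagln (-0.11, adjusted p = 0.90) did not pass. Myh11 was too low to be tested. The 7 listed of 8 fibroblast markers summed to between 22 and 82 in CTRL and between 65 and 237 in Act. Of these, Fap rose from 26, 24 and 19 to 36, 52 and 50 (log2 difference 0.96, adjusted p = 0.015). Col1a1 (1.01, adjusted p = 0.63) and Col1a2 (2.76, adjusted p = 0.31) did not pass. Pdgfra was at 0 in all CTRL libraries and at 4, 0 and 0 in Act. Without replicate 1 of every group, which held most of the collagen counts, the log2 difference of Pdgfrb was 0.66 against CTRL (adjusted p = 0.27) and 1.17 against Act + FST (adjusted p = 0.056). In these bulk libraries, more cells of a type and more RNA per cell cannot be told apart.

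Of the VEGF genes, Vegfa and Flt1 rose and Vegfb fell. Vegfa (ENSMUSG00000023951, chr17:46016993-46032369, minus strand) was at 1098, 1102 and 1016 in CTRL and at 1380, 1500 and 1419 in Act. It was at 1035, 1087 and 876 in Act + FST and at 1044, 1045 and 921 in FST. The Act libraries were above the other 9. The rise over CTRL was 1.34-fold (log2 difference 0.42, SE 0.08, adjusted p = 0.0020), and the log2 difference from Act + FST was 0.52 (SE 0.08, adjusted p = 4.1e-04).

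Vegfb (ENSMUSG00000024962, chr19:6982473-6987651, minus strand), a relative of Vegfa that binds FLT1 but not KDR, was at 332, 349 and 378 in CTRL and at 287, 293 and 304 in Act. It was at 329, 366 and 410 in Act + FST and at 331, 375 and 388 in FST, so that the 3 Act libraries were the lowest. Vegfb fell by 0.26 on the log2 scale against CTRL (SE 0.08, adjusted p = 0.044) and by 0.32 against Act + FST (SE 0.08, adjusted p = 0.016). The call against CTRL rested on a narrow margin and was lost without any 1 of CTRL replicates 2 and 3, Act replicates 1, 2 and 3, Act + FST replicate 2 and FST replicate 2, with log2 differences between -0.28 and -0.21 and adjusted p between 0.056 and 0.17, and also with no filter (adjusted p = 0.052) or no trend (adjusted p = 0.078). The call against Act + FST was lost without Act replicate 1 (adjusted p = 0.054) or Act + FST replicate 3 (adjusted p = 0.069). With the replicate number as a block, the adjusted p of Vegfb was 0.0011 against CTRL and 2.1e-04 against Act + FST. The ratio of Vegfa to Vegfb per kilobase was between 1.01 and 1.24 in CTRL and between 1.75 and 1.92 in Act (exact permutation p = 0.1, the smallest possible).

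Flt1 (ENSMUSG00000029648, chr5:147561604-147726011, minus strand) showed the largest fold change of the 9 genes between Act and CTRL. It was at 35, 18 and 13 in CTRL, 119, 93 and 141 in Act, 31, 10 and 15 in Act + FST and 28, 5 and 11 in FST. Every Act library was thus more than 2 times as high as any other library. Flt1 was 5.51-fold higher in Act than in CTRL (95% interval 2.45 to 12.4; log2 difference 2.46, SE 0.54, adjusted p = 0.0063) and 6.58-fold higher than in Act + FST (log2 difference 2.72, SE 0.54, adjusted p = 0.0033). The endothelial markers, among which Flt1 is often counted, did not move together. Pecam1 was higher in Act (log2 difference 1.12, adjusted p = 0.033 in limma). Vwf (-0.71, adjusted p = 0.0024) and Eng (-0.24, adjusted p = 0.0042) were lower, and Kdr (-0.55, adjusted p = 0.068) did not pass. Cdh5, a defining gene of endothelium, was between 9 and 24 in all 12 libraries (log2 difference 0.47, adjusted p = 0.42). Without replicate 1 of every group, the log2 difference of Flt1 was 2.82 (adjusted p = 0.0019).

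Igf1 (ENSMUSG00000020053, chr10:87858265-87937042, plus strand), the gene with the highest normalized counts of the 9, showed no difference past the threshold. It was at 2905, 2428 and 2582 in CTRL, 2980, 2671 and 2676 in Act, 2653, 2638 and 2538 in Act + FST and 2656, 2613 and 2499 in FST. CTRL replicate 1 lay within the Act range. The log2 difference between Act and CTRL was 0.08 (SE 0.07, 95% interval -0.07 to 0.22, adjusted p = 0.49), so that a rise of more than 1.16-fold lay outside the interval. Under quantile normalization it was 0.11 with an adjusted p of 0.030.

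Hbegf (ENSMUSG00000024486) fell with activin A. It was at 78, 39 and 16 in CTRL, 12, 11 and 8 in Act, 63, 22 and 20 in Act + FST and 57, 40 and 26 in FST. The Act libraries were the 3 lowest, although CTRL replicate 3 was only 4 normalized counts above the highest of them. The log2 difference between Act and CTRL was -1.75 (SE 0.53, adjusted p = 0.035), a level 3.37-fold lower in Act. The call was lost without any 1 of CTRL replicates 1 and 2 and Act replicates 1, 2 and 3, with log2 differences between -1.86 and -1.22 and adjusted p between 0.063 and 0.12, and also without replicate 1 of every group (log2 difference -1.33, adjusted p = 0.062) or with no trend (adjusted p = 0.069). The fit with the replicate number as a block gave an adjusted p of 3.3e-04 against CTRL. Against Act + FST the log2 difference was -1.49 (SE 0.53) and missed the threshold (adjusted p = 0.068). With the replicate number as a block, the adjusted p was 0.0012 for this comparison. Without Act + FST replicate 1 the log2 difference was -0.97 (adjusted p = 0.22), and without replicate 1 of every group it was -1.08 (adjusted p = 0.11).

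Counted over the 9 genes, 7 passed an adjusted p of 0.05 in Act versus CTRL, where 20.2% of the 14318 genes tested did. Of these, 4 were higher, against 10.3% of all genes, and 3 were lower, against 9.97%. With the replicate block 8 of 9 passed, against 31.5% of all genes, Pdgfrb being the gene gained. The groups did not overlap for 8 of 9, against 35.7% of all genes. By the stricter rule for a differentially expressed gene (DEG), which adds a fold change of at least 2, only Flt1 and Hbegf were called, against 5.66% of all genes. The median absolute log2 difference over the 9 genes was 0.56, beside 0.14 over all genes tested. Because the 9 genes were chosen with earlier results of these data known, these counts are descriptive and no test of enrichment.

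The FST groups addressed whether these shifts needed free activin A. In Act versus Act + FST, 7 of 9 genes passed (5 higher, 2 lower), where 21.3% of all genes did, and 8 with the replicate block, against 32.6%. All 9 did not overlap, against 34.1% of all genes, and 2 were DEGs, Pdgfrb and Flt1, against 5.83%. In Act + FST versus CTRL, 0 of 9 passed in limma, where 0% of all genes did, all 9 genes overlapped between the groups, and 6.68% of all genes did not. At an unadjusted p under 0.05 the count was 0 of 9, beside 655 of all genes. The log2 differences of the 9 genes were between -0.36 and 0.06. In FST versus CTRL, 0 of 9 passed in limma (0% of all genes), 0 of 9 had an unadjusted p under 0.05, beside 299 of all genes, and all 9 overlapped, where 5.55% of all genes did not. With the replicate block 0 of 9 passed in either comparison, beside 0.559% of all genes in Act + FST versus CTRL. At an unadjusted p under 0.05, the block fit gave Pdgfb (log2 difference -0.21, 95% interval -0.34 to -0.08) and Vegfa (-0.11, -0.21 to -0.01) in Act + FST versus CTRL, beside 1404 of all genes, and Pdgfb (-0.16, -0.29 to -0.03) and Flt1 (-0.73, -1.44 to -0.03) in FST versus CTRL, beside 700 of all genes. Each of these was lower than CTRL in 3 of 3 replicate pairs. The comparisons share their CTRL or Act libraries and are therefore not independent of each other. Absence of a call does not show equality, and for Flt1 the interval of Act + FST against CTRL ran from -1.43 to 0.92 on the log2 scale.

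**Figure D4:**
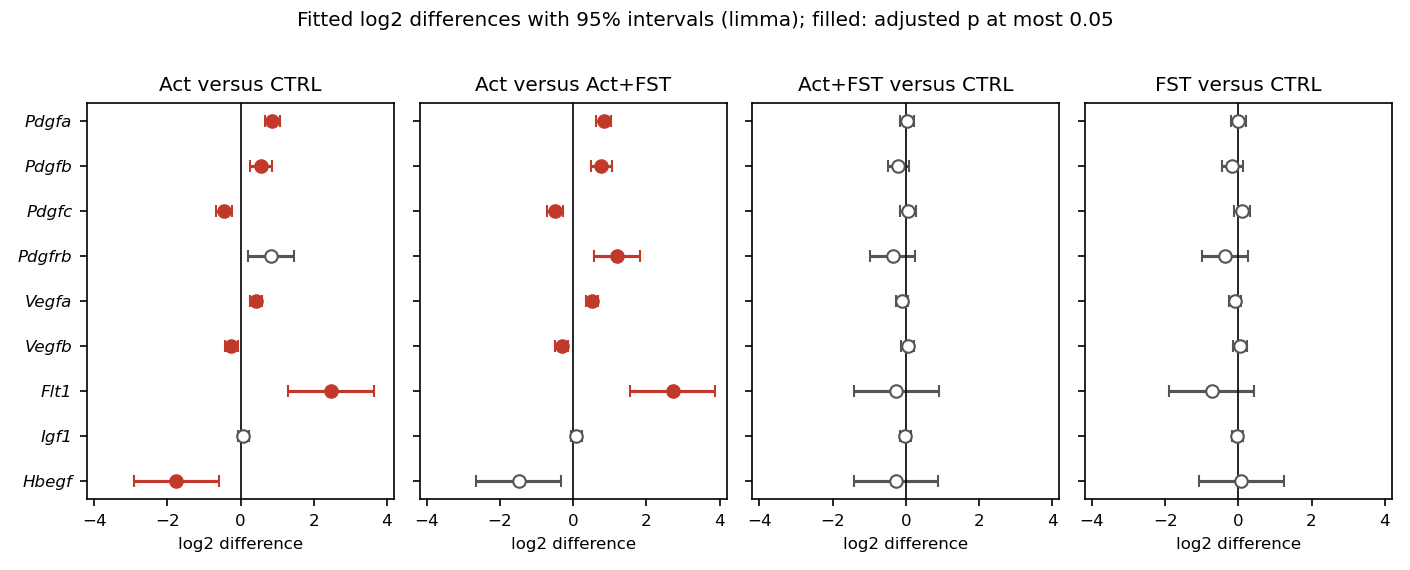
Fitted log2 differences (horizontal axis) of the 9 genes with 95% intervals from limma in 4 comparisons, with filled symbols for an adjusted p of at most 0.05. The differences in the left pair of panels, with Act, reach 2.46 and 2.72 for Flt1, while those in the right pair, without Act alone, all have intervals across 0.

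Whether the effect of activin A differed with and without FST288 was tested as an interaction, the difference Act minus CTRL less the difference Act + FST minus FST. It passed for Pdgfa (0.84 on the log2 scale, SE 0.13, adjusted p = 0.0023) and Vegfa (0.43, SE 0.11, adjusted p = 0.034), where 6.74% of all genes passed. With the replicate block it passed for 6 of 9 genes, against 16.3% of all genes, the further members being Pdgfb (0.60, adjusted p = 2.9e-04), Flt1 (1.98, adjusted p = 0.0095), Vegfb (-0.27, adjusted p = 0.016) and Hbegf (-1.40, adjusted p = 0.030). Pdgfc (-0.40, adjusted p = 0.055 with the block), Pdgfrb (0.83, adjusted p = 0.16) and Igf1 (0.06, adjusted p = 0.56) did not pass in either fit.

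Several of these genes also varied with the replicate number. In the fit with the replicate number as a block, that term passed for 5 of 9 genes, where 21.6% of all genes did. Pdgfb (adjusted p = 0.0012) and Hbegf (adjusted p = 0.0047) were highest in replicate 1 of every group. The difference of replicate 3 from replicate 1 was -1.36 for Hbegf and -0.34 for Pdgfb on the log2 scale. Vegfb (adjusted p = 0.011) was lowest in replicate 1, Flt1 (adjusted p = 0.015) was lowest in replicate 2 of all groups but CTRL, and Vegfa (adjusted p = 0.018) was lowest in replicate 3 of all groups but Act. Within each number, the effect of activin A on these 5 genes kept its direction. For Hbegf, the difference Act minus CTRL was -2.60, -1.74 and -0.92 on the log2 scale in replicates 1, 2 and 3, and for Flt1 it was 1.74, 2.31 and 3.34.

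**Figure D5:**
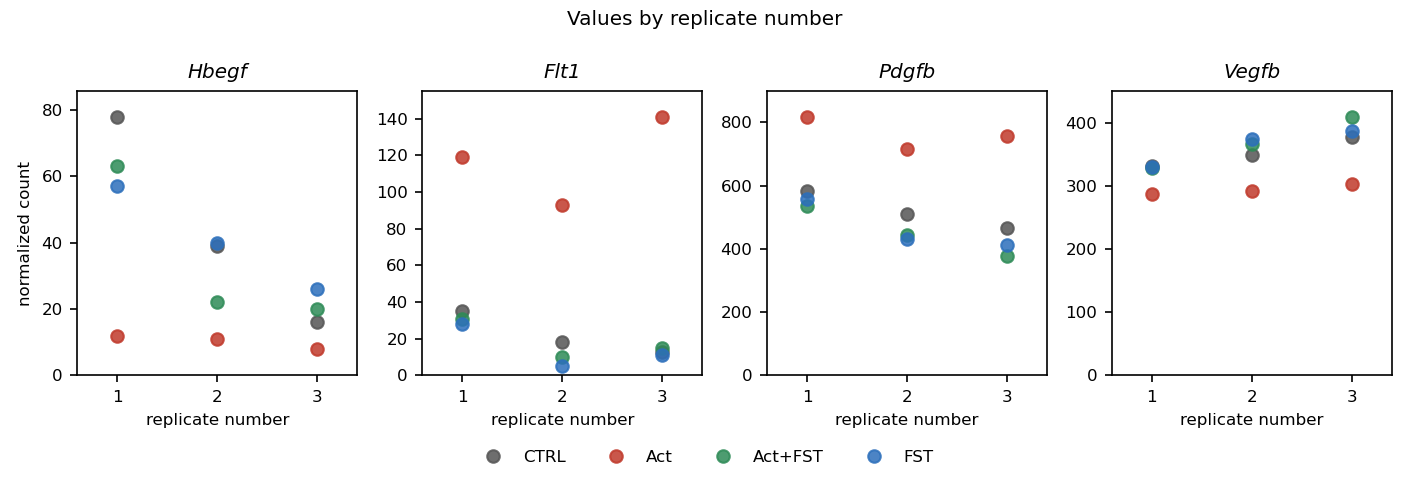
Normalized counts (vertical axis, from 0) of Hbegf, Flt1, Pdgfb and Vegfb by replicate number (horizontal axis), with 1 point per library and color giving the group. Within each number, the Act point lies apart from the other 3, below them for Hbegf and Vegfb and above them for Flt1 and Pdgfb.

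The genes around these ligands were taken from 8 lists of 94 family members, receptors, proteases and response genes, of which 70 were in the table and 55 were tested. In Act versus CTRL, 13 of the 55 were higher and 6 lower, beside 10.3% and 9.97% of all genes, and 36 did not pass. With few genes per list, the counts given next for single lists are read beside the 20.2% of all genes that passed, and those of 1 gene per list are close to it. In Act versus Act + FST 17 were higher and 3 lower, beside 11.1% and 10.2% of all genes. In the comparisons of Act + FST and of FST with CTRL 0 passed in limma, where 0% of all genes did. Of the other PDGF family genes, Pdgfra and Pdgfrl were too low to be tested. Of the 4 tested VEGF family genes 0 passed in Act versus CTRL in limma. With the replicate block 2 were lower, where 31.5% of all genes passed. Kdr, the main signaling receptor of VEGF-A, was at 200, 149 and 157 in CTRL, at 138, 127 and 85 in Act, and at 227, 177 and 255 in Act + FST. All 3 Act libraries were below CTRL. Its log2 difference was -0.55 against CTRL (SE 0.19, adjusted p = 0.068) and -0.92 against Act + FST (SE 0.19, adjusted p = 0.0047). The co-receptors Nrp1 (log2 difference -0.15, adjusted p = 0.22) and Nrp2 (-0.03, adjusted p = 0.78) were high in all groups.

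Among 12 tested hypoxia and glucose response genes, a class in which Vegfa is a classic member, 4 rose and 1 fell in Act versus CTRL. Hif1a, the oxygen-regulated factor that drives Vegfa transcription, went from 1158, 986 and 926 to 1708, 1600 and 1586 (log2 difference 0.68, SE 0.08, adjusted p = 1.3e-04). Vhl, which marks HIF proteins for degradation, rose as well (0.62, SE 0.05, adjusted p = 9.3e-06), and so did the glucose transporter Slc2a1 (0.76, SE 0.16, adjusted p = 0.0057). Epas1, which encodes the related factor HIF-2 alpha, fell by 1.03 on the log2 scale (SE 0.11, adjusted p = 5.1e-05). Egln1 was the other gene that rose (0.21, SE 0.06, adjusted p = 0.032). Egln3 missed the threshold (1.88, SE 0.78, adjusted p = 0.11). It was at 66, 30 and 19 in CTRL, 124, 127 and 128 in Act and 132, 19 and 12 in Act + FST. Further hypoxia targets of the list did not pass, with adjusted p between 0.30 and 0.57. Their log2 differences were -0.04 for Ldha, -0.09 for Pgk1, -0.12 for Pdk1, 0.12 for Bnip3 and -0.40 for Ankrd37. These targets, Egln1 and Egln3 were named after their values were seen. In Act + FST, the log2 differences of these genes from CTRL were -0.10 (Hif1a), -0.01 (Vhl), -0.04 (Slc2a1) and -0.08 (Epas1), with an adjusted p of 1 for each in limma.

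Of 8 tested proteases and protease partners that process these ligands, 3 rose and 1 fell. Adam17, the main sheddase of HB-EGF, was higher in Act (log2 difference 0.28, SE 0.06, adjusted p = 0.0040), as were Rhbdf1 (0.60, SE 0.11, adjusted p = 0.0023) and Rhbdf2 (0.32, SE 0.06, adjusted p = 0.0017), whose products carry ADAM17 to the cell surface. Plau, the urokinase gene, was lower (-0.64, SE 0.16, adjusted p = 0.011). The sheddase genes Adam10 (0.18, adjusted p = 0.059) and Adam9 (0.06, adjusted p = 0.60), named after their values were seen, did not pass.

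Of the 6 tested EGF family genes 1 passed, the receptor gene Erbb3, which was lower in Act (-0.48, SE 0.14, adjusted p = 0.028). Of 5 tested genes of the IGF axis 1 passed, Irs2, an adaptor of the insulin and IGF1 receptors, which was higher (0.64, SE 0.12, adjusted p = 0.0023). With the replicate block 2 genes of this axis were higher and 1 lower, where 31.5% of all genes passed. Igf1r was at 904, 812 and 908 in CTRL and 1133, 1042 and 942 in Act (0.25, SE 0.11, adjusted p = 0.14). Of 9 tested feedback genes of receptor signaling, Dusp6 (0.60, SE 0.09, adjusted p = 4.6e-04) and Errfi1 (0.59, SE 0.08, adjusted p = 1.7e-04), which restrain ERK and the EGF receptor, were higher, and Dusp4 was lower (-0.92, SE 0.24, adjusted p = 0.016).

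Of 11 tested genes of other growth factor systems, 3 were higher and 2 lower. Fgf1, a fibroblast growth factor, went from 53, 51 and 38 in CTRL to 137, 175 and 89 in Act (log2 difference 1.44, SE 0.30, adjusted p = 0.0048), and Fgfr1, a receptor for it, from 71, 44 and 38 to 15, 21 and 12 (-1.60, SE 0.31, adjusted p = 0.0028). Neither gene overlapped between the groups. Met, the receptor of hepatocyte growth factor, was higher (1.07, SE 0.21, adjusted p = 0.0028), and Angpt2, a ligand that opposes vessel stabilization, was lower (-1.13, SE 0.28, adjusted p = 0.012). In Act versus Act + FST, Fgf1 (1.85, SE 0.30, adjusted p = 8.8e-04) and Met (1.04, SE 0.21, adjusted p = 0.0033) passed too. Fgfr1 (-0.87, SE 0.31, adjusted p = 0.063) and Angpt2 (-0.54, SE 0.28, adjusted p = 0.20) did not. In Act + FST, Fgfr1 was at 43, 28 and 21 and Angpt2 at 16, 15 and 17. Fgf2, named after its values were seen, lay under the filter on low values and was not tested. It was at 16, 12 and 19 in Act and between 0 and 3 in the other 9 libraries.

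Genes with the most similar pattern were sought among those with a mean of at least 50, by the correlation of log2 values over the 12 libraries, which share treatment groups and replicate numbers. Highest for Pdgfa were Pdlim7 (r = 0.99) and Gcnt2 (0.99), for Pdgfb Plekhg1 and Fam117b (0.98 each), and for Pdgfc Snap29 (0.98) and Rragd (0.97). Il4i1 and Zfp397 (0.96 each) were the closest to Pdgfrb. For Vegfa they were Nuak2 and Rnf145 (0.99 each), for Vegfb Nagk (0.98) and Mvk (0.97), and for Flt1 Cd276 and Extl3 (0.98 each). Igf1 was closest to Usp47 (0.97) and Chd4 (0.96), and Hbegf to Lclat1 (0.97) and Vma21 (0.96). Among the members, Pdgfb and Vegfb mirrored each other most closely (r = -0.98 over the 12 libraries), and Igf1 and Hbegf were the least alike (-0.04).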

How the data were processed

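Per the labels and the study's methods, single-end reads of stranded mRNA libraries were trimmed with Trimmomatic 0.39, aligned to mm10 with STAR 2.7.9a and counted per gene with featureCounts 2.0.2, without reads that overlapped more than 1 gene or aligned to more than 1 place. The authors used DESeq2 1.30.0. The deposited table holds a signal per gene and library, namely counts that the authors scaled by 1 factor per library and rounded. The scaling formula and the strand setting are not given in the sources used here.

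Whole reads could not be recovered, so limma 3.58.1 (R 4.3.3, empirical Bayes with a trend) was fitted to log2(normalized count + 1) of the 14318 genes whose mean was 5 or more. The model held 4 group means over all 12 libraries. A fold change is therefore on the log2(value + 1) scale and understates that of low genes. DEGs needed a fold change of at least 2 and an adjusted p of at most 0.05. Ratios of single values used exact permutation tests, two-sided. Depth before scaling was estimated from the value of 1 read in each library (0.909 to 1.09 normalized counts), and counting error limits the genes near 5 the most.

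Labels give the same replicate numbers in each group. Deviations from group means correlated between all 18 pairs of libraries with the same number (r 0.16 to 0.48), so the numbers were taken to pair the libraries, from the data, and a fit with the replicate number as a block was run beside the main one. Alternatives were pseudocounts of 0.5 and 5, no filter, a mean of at least 50, TMM factors, quantile normalization, no trend, only the libraries compared, the block, and leaving out each library. Chosen after seeing the data were a correction for shared start positions of reads and the omission of replicate 1 of every group.

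The members, gene lists and tests were chosen with earlier results of these data known. Named beside the 9 members were up to 4 genes per list that passed in Act versus CTRL and the 2 most similar genes per member, besides markers and receptors that a result touches. Where RefSeq gave a gene a second start, the more upstream window was printed. Exonic lengths are from a GENCODE annotation of GRCm38, and promoters from RefSeq (6 of the 9 members). No library was left out.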

Additional observations from a re-analysis of the deposited data

Results flagged for a closer look

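For Pdgfa and Vegfa the effect of activin A differed with the presence of FST288. The effect of activin A without FST288 minus that with FST288 was 0.84 on the log2 scale for Pdgfa (limma adjusted p = 0.0023) and 0.43 for Vegfa (limma adjusted p = 0.034). For Pdgfa the difference passed in all 22 alternatives in which it could be fitted, with adjusted p between 5.5e-04 and 0.035. For Vegfa it kept its direction but missed the threshold in 8 of 22, among them the fit without replicate 1 of every group (0.47, adjusted p = 0.098).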

How the results depend on the processing

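In Act versus CTRL and Act versus Act + FST every member kept its direction under all alternatives run. With a mean of at least 50, DEGs over all genes numbered 364 in Act versus CTRL (811 in the main fit), 378 in Act versus Act + FST (835) and 227 for the interaction (379), since fewer genes were tested. The replicate block gave 6 DEGs in Act + FST versus CTRL (0 without it), 627 for the interaction and 6 members passing the interaction instead of 2, and it changed no other call of a member than those given in the report. Without the trend 1 member passed the interaction, as in the lowest of the fits leaving out a library (range 1 to 3). In those fits 5 to 8 members passed in Act versus CTRL and 6 to 8 in Act versus Act + FST. Signs turned only in Act + FST or FST versus CTRL, where 0 of 9 members passed in limma under any alternative. There, with quantile normalization, Igf1 stood at 0.0158 in Act + FST and Pdgfa at -0.00193 in FST. Without replicate 1 of every group, Igf1 stood at 0.0474 and 0.0294 and Pdgfa in FST at -0.0229. Leaving out single libraries, the ranges in Act + FST were -0.68 to 0.13 (Flt1), -0.84 to 0.27 (Hbegf), -0.0699 to 0.0594 (Igf1), -0.0410 to 0.105 (Pdgfa) and -0.0226 to 0.136 (Vegfb), and in FST -0.49 to 0.62 (Hbegf), -0.0814 to 0.0480 (Igf1), -0.0686 to 0.0776 (Pdgfa) and -0.00073 to 0.11 (Vegfb). Flt1, Pdgfrb and Hbegf, at 5 to 141 normalized counts, carry the widest intervals. The cause of these shifts was not tested.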
